A study of Mus musculus with 15 samples.

Results

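The 44 genes described here are the cell cycle and DNA replication genes of the mouse liver. They were chosen by symbol from the 55450 genes of the count table, with earlier results of these data known. Of the 44 genes, 18 are used mainly around the start of DNA synthesis (S-phase members) and 25 act mainly in mitosis (mitotic members). The remaining 1, Ccnd1, encodes cyclin D1, which carries the signal to leave G1. RNA was sequenced from the liver of 15 female C57BL/6 mice, with 5 mice per group and 1 library per mouse. At the start the Adult group (A1 to A5) was aged 6 months and the Old group (O1 to O5) 22 months, and both received corn oil as vehicle. The PDX group (P1 to P5) was also aged 22 months at the start and was gavaged daily with protectin DX, a lipid mediator derived from docosahexaenoic acid, at 30 ng per g body weight, for 9 weeks in the treatment protocol and 8 weeks in the description of the series. Livers were taken after the gavage period, when all mice were older than these starting ages. Old was compared with Adult to ask what differed with age, and PDX with Old to ask what differed with treatment. PDX was also compared with Adult.

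Cells enter the cycle when cyclin D and then cyclin E kinases release the E2F factors, which transcribe the genes of origin licensing, the MCM helicase and nucleotide supply. Later, the DREAM and MYB-MuvB complexes and FOXM1 control genes of mitosis, whose promoters often carry the CHR element and CCAAT boxes. Hepatocytes of an adult liver rarely divide, whereas blood progenitors and activated immune cells divide often. In bulk liver RNA, more cycling cells of a type and more RNA of these genes per cell cannot be told apart.

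RefSeq promoter windows of 300 bases (250 before and 50 after the start, GRCm38.p6) were matched for 36 of the 44 members, all but Ccnd1, Foxm1, Kif20a, Mcm4, Ccna2, Tpx2, Aurkb and Ccne2, and gave 17 windows of S-phase members and 22 of mitotic members. The E2F site (TTTCCCGC, TTTCGCGC, TTTGCCGC or TTTGGCGC, either strand) was in 6 S-phase windows (35.3%) and 1 mitotic window (4.55%), beside 2.26% of all 32851 windows. The CHR element (TTTGAA or TTCGAA, either strand) was in 18 mitotic windows (81.8%) and 4 S-phase windows (23.5%), beside 19.2% of all windows. All of those 18 mitotic windows also held CCAAT on either strand, a pair found in 7.52% of all windows. The letters of 2 members of each kind are printed, with Cdk1 included as the mitotic window that held an E2F match, and capitals mark the E2F, CHR and CCAAT matches.
Mcm6 (chr1:128359656-128359955, minus strand): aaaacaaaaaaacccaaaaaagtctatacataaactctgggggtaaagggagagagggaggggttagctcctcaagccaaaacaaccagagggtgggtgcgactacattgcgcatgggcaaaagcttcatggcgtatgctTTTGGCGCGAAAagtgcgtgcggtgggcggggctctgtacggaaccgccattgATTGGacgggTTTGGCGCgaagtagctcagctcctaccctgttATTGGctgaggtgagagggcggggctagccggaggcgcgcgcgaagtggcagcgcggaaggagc
Cdt1 (chr8:122567765-122568064, plus strand): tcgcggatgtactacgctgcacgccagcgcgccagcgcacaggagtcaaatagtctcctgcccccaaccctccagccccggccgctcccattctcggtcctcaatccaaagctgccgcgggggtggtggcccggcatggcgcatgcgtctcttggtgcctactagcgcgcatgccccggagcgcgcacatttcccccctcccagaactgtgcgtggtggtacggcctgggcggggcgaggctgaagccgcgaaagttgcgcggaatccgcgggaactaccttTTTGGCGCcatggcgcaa
Cdk1 (chr10:69352863-69353162, minus strand): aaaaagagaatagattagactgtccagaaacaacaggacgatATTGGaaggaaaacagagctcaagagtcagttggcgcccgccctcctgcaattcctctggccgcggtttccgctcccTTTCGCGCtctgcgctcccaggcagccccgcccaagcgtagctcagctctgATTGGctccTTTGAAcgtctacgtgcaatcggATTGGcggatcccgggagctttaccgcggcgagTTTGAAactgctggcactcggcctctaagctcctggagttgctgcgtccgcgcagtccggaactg
Top2a (chr11:99024140-99024439, minus strand): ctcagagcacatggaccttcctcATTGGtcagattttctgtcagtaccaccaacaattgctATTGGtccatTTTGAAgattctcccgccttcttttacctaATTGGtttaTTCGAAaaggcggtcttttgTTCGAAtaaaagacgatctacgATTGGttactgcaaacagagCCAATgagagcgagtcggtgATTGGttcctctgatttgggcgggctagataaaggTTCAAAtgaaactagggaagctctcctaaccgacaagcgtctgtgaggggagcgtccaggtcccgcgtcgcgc
The Mcm6 window held 3 E2F matches and no CHR, and the Cdt1 window held 1 E2F match. The Top2a window held 4 CHR and 6 CCAAT matches and no E2F, and the Cdk1 window held 1 E2F, 2 CHR and 3 CCAAT matches. These matches describe the letters of the windows and were not used in any test.

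The libraries held 22424383 to 36070835 counted read pairs. Levels are given as CPM, the counts of a gene scaled to 1000000 counts of a library total that was first multiplied by edgeR's TMM factor, which was 1.331 in O2 and 0.884 to 1.08 in the other mice. Without that factor the levels of O2 would be 1.331 times those printed. Mouse O2 stood apart from the other 14 mice and is given with each result that rests on it. Its summed CPM of 12 macrophage markers was 4359, against at most 2231 in any other mouse. O2 was the highest mouse in 10 of these 12 genes. Gpnmb was highest in O5 (71.7 CPM, against 27.3 CPM in O2), and Marco in P3 (197 CPM, against 38.5 CPM in O2). The sum of 12 T and NK cell markers in O2 was 211 against at most 40.7. Of that 211, Cd4 alone gave 116 CPM, and O2 was the highest mouse in each of the 12 genes. Its sum of 12 erythroid markers was 207 against at most 59.5. Its sum of 10 hepatocyte markers was 83785, below the 93056 of O5 and all other mice. By the raw library total this order turned, with 111280 in O2 and 96952 in O5, the lowest. Mouse O5 also differed, being the highest of the 15 mice in 25.9% and the lowest in 28.4% of the 15808 genes tested. The defining hepatocyte genes were abundant in every library (Alb, encoding albumin, 34724 to 180125 CPM).

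The members were low in every group. Per length of transcript, the median over mice was 16.7 RPKM for Ccnd1 and 8.63 RPKM for Pcna, the sliding clamp of the replication polymerases, and 1.08 RPKM for E2f1. The median was 0.584 RPKM for Ccnb2, 0.315 RPKM for Mki67, the proliferation antigen, and 0.0290 RPKM for Cenpe, a kinetochore motor. Of the 44 members, 42 passed the filter on low counts, namely all 18 S-phase members, 23 of 25 mitotic members and Ccnd1. Bub1, a spindle checkpoint kinase, and Ccnb1, cyclin B1, did not pass. Ccnb1 had between 0 and 11 counts in every mouse but O2.

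The summed level of the 18 S-phase members was 117, 120, 114, 126 and 120 CPM in A1 to A5. It was 117, 399, 133, 103 and 114 CPM in O1 to O5, and 94.1, 135, 139, 140 and 110 CPM in P1 to P5. The other 14 mice lay between 94.1 and 140 CPM, and O2 lay above them, at 2.85 times the next highest mouse. The summed level of the 25 mitotic members was 32.9, 19.8, 16.2, 21.2 and 22.4 CPM in A1 to A5. It was 23.0, 313, 43, 17.5 and 20.9 CPM in O1 to O5, and 21.9, 49.3, 45.5, 45.9 and 26.0 CPM in P1 to P5. O2 was 6.36 times the next highest mouse, P2, and the other 4 Old mice overlapped both other groups. The mitotic sum amounted to 78.5% of the S-phase sum in O2, and to 14.3% to 36.5% in the other mice.

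**Figure D1:**
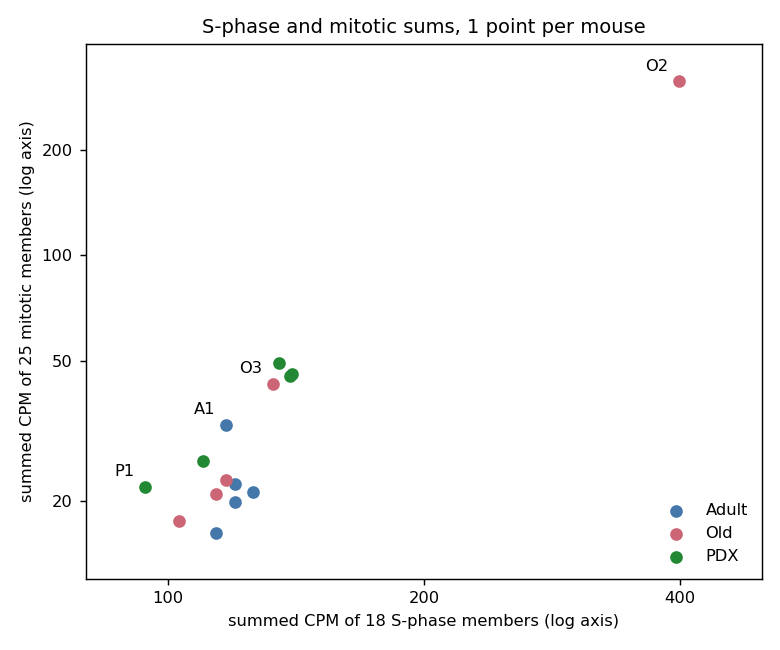
Each point is 1 mouse, with the summed CPM of the 18 S-phase members on the x axis and of the 25 mitotic members on the y axis (both log axes), coloured by group. O2 lies at 399 and 313 CPM, and all other mice lie at or under 140 and 49.3 CPM.

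O2 was the highest of the 15 mice in 25 of 25 mitotic members and in 14 of 18 S-phase members, whereas it was the highest in 20.1% of all genes tested. Its level over the median of the other 14 mice had a median of 14.9 in the mitotic members, from 2.95 for Cenpa, the centromeric histone, to 29.4 for Top2a, the topoisomerase that untangles chromosomes. In the S-phase members this ratio had a median of 4.66, from 1.12 for Tk1, thymidine kinase, to 20.0 for Cdc6, which loads the helicase on origins. The 4 S-phase members in which O2 was not the highest were Ccne1, Ccne2, Mcm7 and Tk1, and by the raw library total Tk1 was the 1 such member. The 14 other mice varied less among themselves, and P2 was the highest of those 14 in 9 mitotic members, O3 in 6 and P4 in 4.

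**Figure D2:**
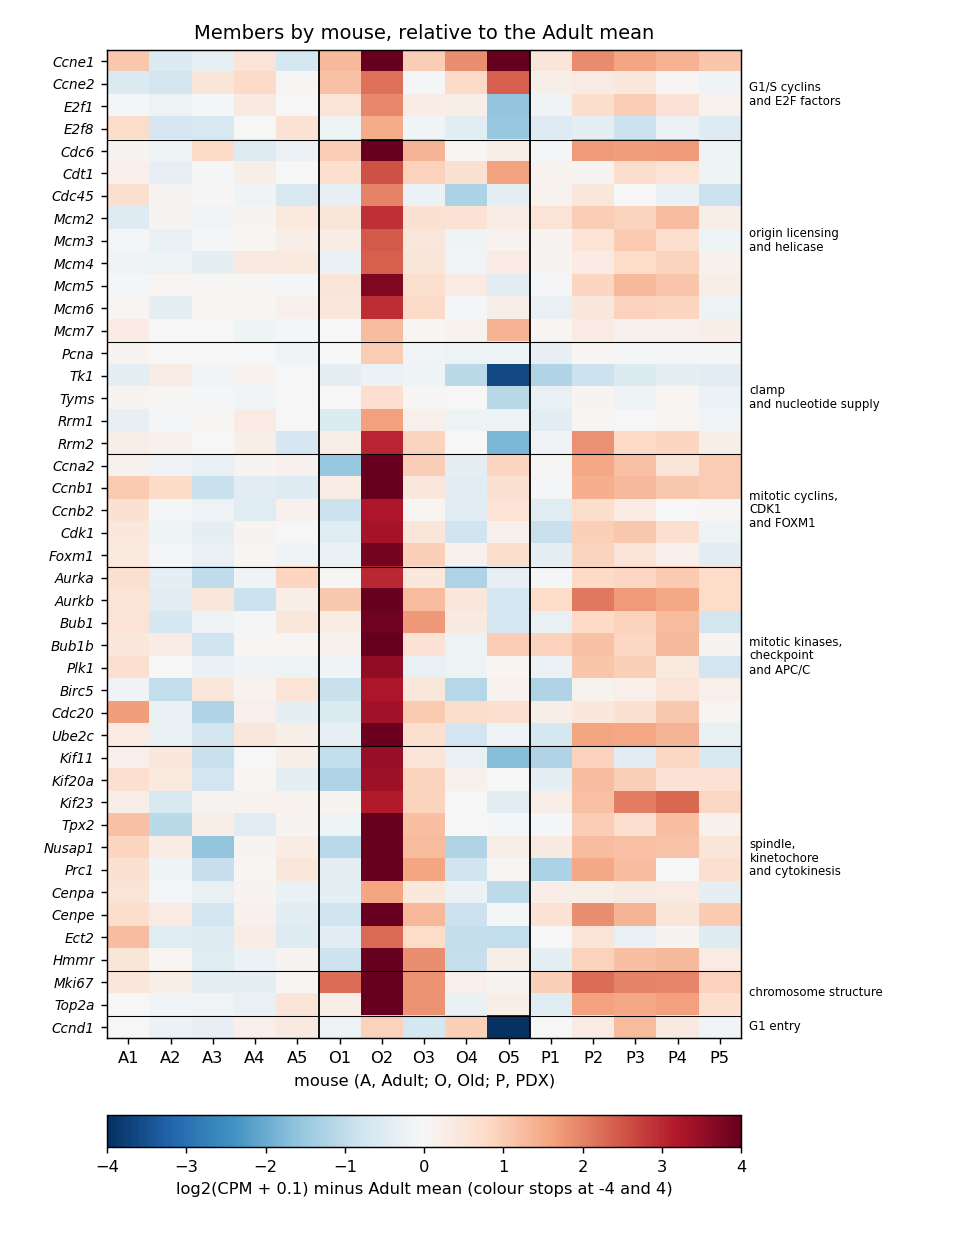
Rows are the 44 members by role and columns the 15 mice, and colour is log2(CPM + 0.1) minus the Adult mean, with the scale stopped at -4 and 4. O2 is red in nearly every row, and O5 is red at Ccne1, Ccne2, Cdt1 and Mcm7 and blue at Ccnd1, Tk1 and Rrm2.

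Between Old and Adult, 3 of the 42 tested members rose and 0 fell in the quasi-likelihood test of edgeR (p adjusted over all genes by Benjamini-Hochberg, threshold 0.05). Of all genes tested, 4.71% rose and 2.07% fell, so the members' 3 of 42 (7.14%) was near the background. The 3 were Ccne1 (cyclin E1, the partner of CDK2 at the G1/S step), Cdt1 (which loads the MCM helicase) and Mki67. The median log2 fold change was 0.97 over the S-phase members and 2.06 over the tested mitotic members, beside 0.07 over all genes tested. Without O2 these medians were 0.16 and 0.15, beside 0.05. Without O2, 2 members rose, Ccne1 and Cdt1, and 3.38% of all genes did. Without O2 and O5, 2 members rose, Cdt1 and Mki67, and 4.85% of all genes did. Leaving out another Old mouse gave more calls, with 10 members higher without O1 (7.64% of all genes), 8 without O3 (8.55%), 10 without O4 (7.44%) and 9 without O5 (8.66%).

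**Figure D3:**
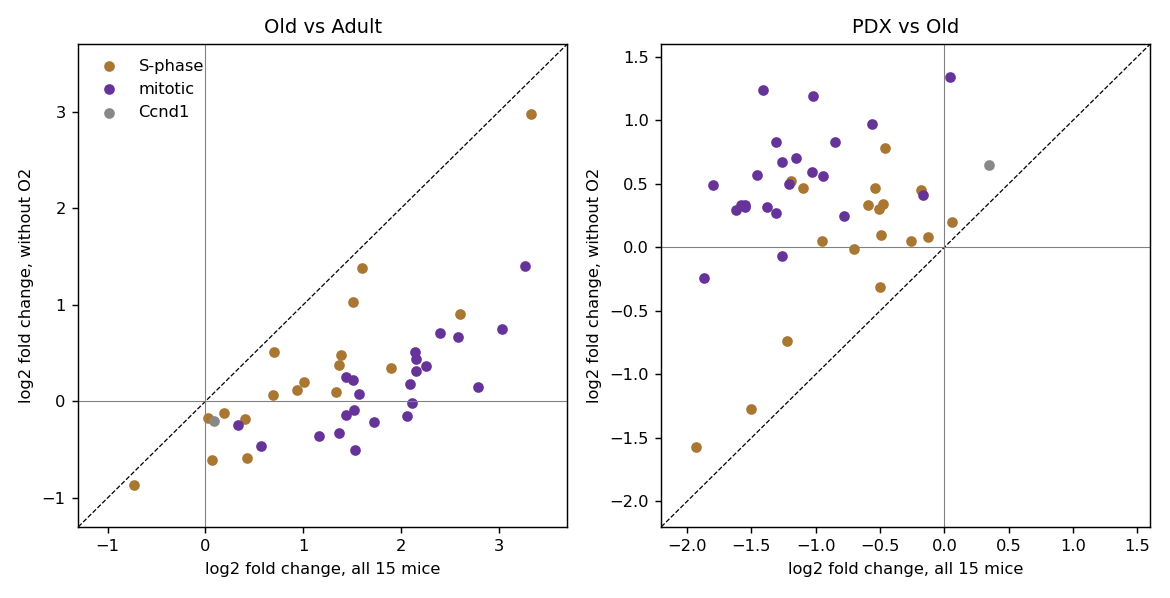
Each point is a tested member, with the log2 fold change from all 15 mice on the x axis and from the 14 mice without O2 on the y axis, for Old against Adult (left) and PDX against Old (right), and the dashed line marks equal values. Mitotic members lie between 0.33 and 3.27 with O2 in the left panel and gather around 0 without it, and in the right panel most points move from below 0 to above 0.

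Ccne1 was at 0.646, 0.141, 0.182, 0.403 and 0.115 CPM in A1 to A5. It was at 0.764, 5.79, 0.603, 1.19 and 7.0 CPM in O1 to O5, and at 0.395, 1.2, 0.946, 0.822 and 0.654 CPM in P1 to P5. O2 and O5 were far above all other mice, and O3 lay below A1, so that the groups overlapped. The rise from Adult to Old was 3.33 ± 0.73 on the log2 scale (SE; edgeR adjusted p = 0.0233), and 2.97 ± 0.72 without O2 (edgeR adjusted p = 0.0376). Without O2 and O5 the difference was 1.49 ± 0.51 and missed the threshold (edgeR adjusted p = 0.0923). The exact two-sided permutation test on log2 CPM of 5 against 5 mice gave p = 0.0159. Leaving out A2, A3, A4 or A5 ended the call. Without any 1 Adult mouse, 108 to 182 of all genes tested rose, against 745 with all mice. Ccne2, cyclin E2, was at 0.317 to 1.06 CPM in Adult, at 1.44, 3.04, 0.565, 1.08 and 3.54 CPM in O1 to O5, and at 0.516 to 0.820 CPM in PDX. Its difference between Old and Adult, 1.6 ± 0.46 on the log2 scale, missed the threshold (edgeR adjusted p = 0.0512).

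Cdt1 was at 2.67, 1.80, 2.19, 2.74 and 2.27 CPM in A1 to A5. It was at 3.74, 14.1, 4.49, 3.60 and 7.21 CPM in O1 to O5, and at 2.56, 2.49, 3.79, 3.39 and 2.03 CPM in P1 to P5. Every Old mouse was above every Adult mouse, which was so for 3.65% of all genes tested and for no other member. The rise was 1.51 ± 0.35 on the log2 scale (edgeR adjusted p = 0.0264), 1.03 ± 0.24 without O2 (edgeR adjusted p = 0.0346) and 0.77 ± 0.22 without O2 and O5 (edgeR adjusted p = 0.0476). The exact permutation test gave p = 0.00794, the smallest that 5 against 5 mice allow. The call was lost when any 1 of the 5 Adult mice was left out, which left 108 to 182 genes called higher in all, against 745. Among the other licensing and helicase genes, Mcm7, an MCM subunit, was at 11.1 to 15.8 CPM in Adult, at 12.5, 30.8, 13.2, 13.9 and 33.0 CPM in O1 to O5 and at 13.5 to 15.9 CPM in PDX. Its level was thus high in O2 and O5 alone, with a log2 difference between Old and Adult of 0.70 ± 0.25 (edgeR adjusted p = 0.0949). The remaining licensing and helicase members, Cdc6, Cdc45 and Mcm2 to Mcm6, differed by 0.42 to 2.6 on the log2 scale and did not pass the test, and O2 was 2.62 to 5.80 times the next highest mouse in each.

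Mki67 was at 2.25, 1.94, 1.2, 1.2 and 1.69 CPM in A1 to A5. It was at 7.94, 62.8, 5.92, 1.89 and 1.77 CPM in O1 to O5, and at 3.24, 7.91, 6.69, 6.5 and 3.17 CPM in P1 to P5. O1, O2 and O3 were above all Adult mice, O4 and O5 lay within the Adult range, and all PDX mice were above all Adult mice. The rise from Adult to Old was 3.27 ± 0.84 on the log2 scale (edgeR adjusted p = 0.0340). Without O2 it was 1.40 ± 0.44 and missed the threshold (edgeR adjusted p = 0.0860), and without O2 and O5 it was 1.66 ± 0.41 and passed it (edgeR adjusted p = 0.0292). The exact permutation test gave p = 0.0556. The call was also lost without any 1 of the Adult mice, when 108 to 182 of all genes rose, against 745 with all mice.

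**Figure D4:**
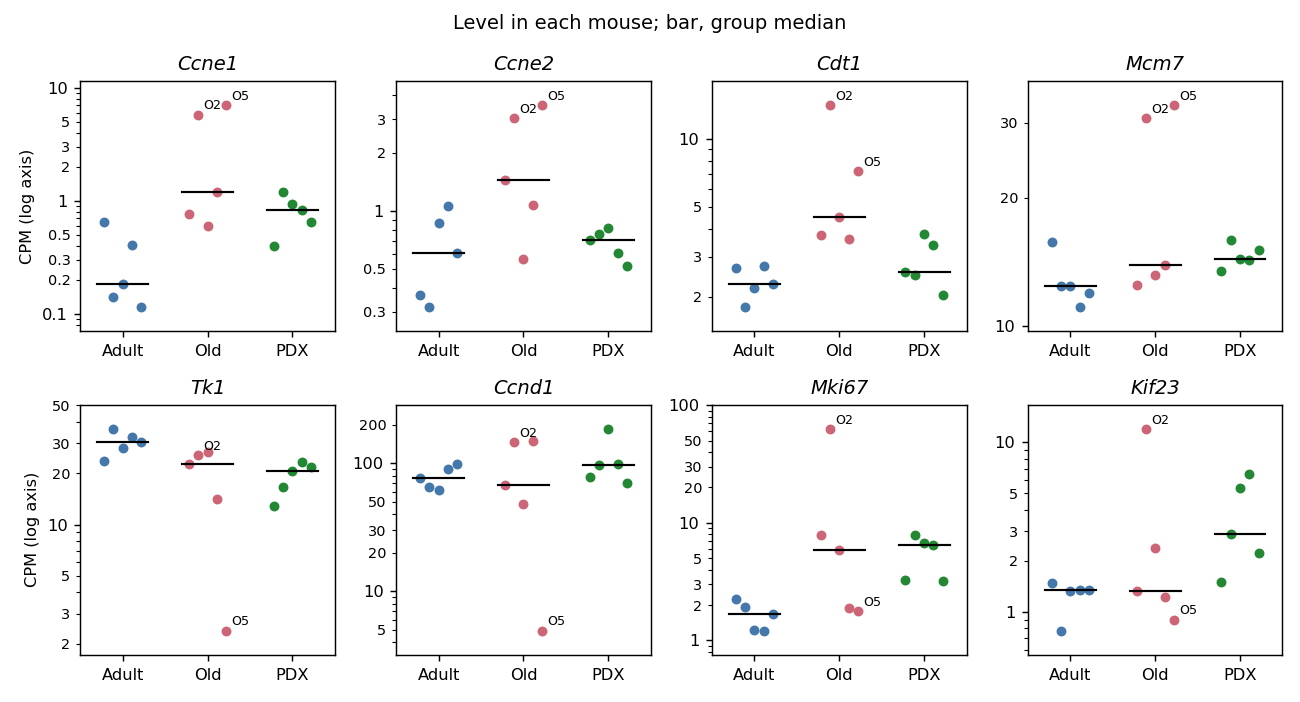
Each point is the CPM of 1 mouse (log axis) for 8 members, with a bar at the group median and with O2 and O5 marked. O2 and O5 are high together at Ccne1, Ccne2 and Mcm7, O5 is low at Tk1 (2.38 CPM) and Ccnd1 (4.91 CPM), and all PDX mice are above all Adult mice at Mki67 and, by a margin that the raw library total does not keep, at Kif23.

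The other members named by role did not pass the test between Old and Adult. E2f1, the activating E2F factor, was at 2.47 to 3.7 CPM in Adult and at 4.25, 11.3, 3.58, 3.42 and 0.902 CPM in O1 to O5, so that O2 was the highest and O5 the lowest of all mice. Pcna was at 19.2 to 22.9 CPM in Adult, at 43.3 CPM in O2 and at 18.4 to 20.9 CPM in the other Old mice, with a log2 difference of 0.19 ± 0.20 (edgeR adjusted p = 0.578). Ccnb2, cyclin B2, was at 0.585 to 1.35 CPM in Adult, at 8.84 CPM in O2 and at 0.425 to 1.30 CPM in the other Old mice. Cdc20, the activator of the anaphase-promoting complex, was at 0.228 to 2.33 CPM in Adult, at 7.72 CPM in O2 and at 0.425 to 1.47 CPM in the other Old mice. For both cyclin B2 and Cdc20, all Old mice but O2 lay within or below the Adult range. Cenpa was at 3.37 to 6.04 CPM in Adult, at 12.5 CPM in O2 and at 1.95 to 5.62 CPM in the other Old mice.

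Ccnd1 was at 76.6, 65.3, 62.1, 89.7 and 98.5 CPM in A1 to A5. It was at 67.5, 147, 47.9, 150 and 4.91 CPM in O1 to O5, and at 78.6, 97.6, 186, 98.7 and 70.8 CPM in P1 to P5. The Old mice spread below and above the Adult mice, and O5, with 136 counts, was far below every other mouse. Old and Adult differed by 0.09 ± 0.56 on the log2 scale (edgeR adjusted p = 0.935). Tk1 was also lowest in O5, at 2.38 CPM beside 12.9 to 36.4 CPM in the other 14 mice. O5 was the lowest of all mice in 6 of 18 S-phase members and 3 of 25 mitotic members.

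Between PDX and Old, 0 of 42 members changed by edgeR (adjusted p = 0.793 for the smallest p), as did 0 of all genes tested (0%). DESeq2 called 0 of the 40 members to which it gave an adjusted p, and 1 of all genes. At an unadjusted p under 0.05, 4 members were lower in PDX (Cdt1, Ccne1, Ccne2 and Foxm1) and 0 higher, and of all genes 4.23% were lower. The Cdt1 difference was -1.22 ± 0.34 on the log2 scale, that of Ccne2 -1.5 ± 0.46 and that of Ccne1 -1.93 ± 0.67 (edgeR adjusted p = 0.793 for each). Over the S-phase members the median log2 fold change was -0.53, and over the mitotic members -1.26, beside -0.07 over all genes. Without O2 the medians were 0.15 and 0.50, beside -0.03, so that their sign turned. No member had all PDX mice on 1 side of all Old mice. Foxm1, a factor that drives mitotic genes, was at 0.467, 9.63, 1.21, 0.669 and 1.01 CPM in O1 to O5 and at 0.434, 1.16, 0.883, 0.679 and 0.413 CPM in P1 to P5, which overlapped.

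Between PDX and Adult, 0 of 40 members changed by DESeq2, while 860 genes rose and 540 fell of the 18233 given an adjusted p. By edgeR 0 of 42 members changed, while 1.76% of all genes rose and 0.898% fell. At an unadjusted p under 0.05, 2 members, Kif23 and Mki67, were higher, and 11.2% of all genes were. Kif23, a motor of the midzone needed for cytokinesis, was at 1.49, 0.775, 1.32, 1.35 and 1.35 CPM in A1 to A5 and at 1.5, 2.89, 5.36, 6.47 and 2.24 CPM in P1 to P5. All PDX mice were above all Adult mice, P1 by a narrow margin that was lost by the raw library total, and the log2 difference was 1.55 ± 0.65 (edgeR adjusted p = 0.191). That of Mki67 was 1.72 ± 0.80 (edgeR adjusted p = 0.240). Aurkb, a kinase of chromosome alignment, was at 0.183 to 0.646 CPM in Adult and at 0.750, 2.09, 1.55, 1.39 and 0.757 CPM in P1 to P5. The 3 members Aurkb, Kif23 and Mki67 had all PDX above all Adult mice, which was 7.14% of those tested (Aurkb and Mki67 by the raw library total), and 10.5% of all genes did. Tk1 alone had all PDX below all Adult mice, at 12.9 to 23.2 CPM against 23.5 to 36.4 CPM, and 9.34% of all genes did.

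The fit to all 15 mice uses 1 estimate of the spread, which O2 enters also in the comparison of PDX with Adult. Without O2, 4 members rose between Adult and PDX, while 7.76% of all genes did. These were Mki67 (1.72 ± 0.42 on the log2 scale, edgeR adjusted p = 0.0196), Kif23 (1.55 ± 0.39, edgeR adjusted p = 0.0207), Mcm2 (0.81 ± 0.20, edgeR adjusted p = 0.0214) and Aurkb (1.55 ± 0.46, edgeR adjusted p = 0.0437). In the fit of PDX and Adult alone, 10 members were called, 9 higher and Tk1 lower, and 29.6% of all genes were called. Without O2 and O5, 8 members were called (7 higher and Tk1 lower), and 24.6% of all genes were. Between Old and Adult, DESeq2 called 15 of the 40 members with an adjusted p higher (37.5%), and 10.1% of all genes were higher. That test was not repeated without O2.

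Marker sums of other cell types were set beside the members. The T and NK cell sum was 6.22 to 12.6 CPM in Adult, 12.3 to 40.7 CPM in PDX and 3.5 to 12.3 CPM in Old mice other than O2. Of 10 tested genes of that list, 0 were called between Old and Adult, while 4.71% of all genes rose and 2.07% fell. The macrophage sum was 527 to 798 CPM in Adult, 976 to 2231 CPM in PDX and 471 to 1170 CPM in Old mice other than O2. Of 12 tested genes of that list, 2 (Gpnmb and Trem2) rose between Adult and Old, beside 4.71% of all genes. Between Adult and PDX, 1 rose with all mice and 9 without O2, beside 1.76% and 7.76% of all genes. The sum of 12 markers of myeloid progenitors and granulocytes was 15.8 to 21.3 CPM in Adult, 41.5 to 179 CPM in PDX and 27.0 to 189 CPM in Old, highest in O2 and next in P2. Of 9 tested genes of that list, 6 rose between Adult and Old, beside 4.71% of all genes. Ms4a3 and Fcnb, other genes of the list, were at 0 in all Adult mice. Cebpe, also of the list, went the other way, at 5.45 to 8.34 CPM in Adult, 0.18 to 6.6 CPM in Old and 1.97 to 4.33 CPM in PDX. Kit was at 4.97 to 8.16 CPM in Adult and 3.1 to 6.71 CPM in Old. Prtn3 alone gave 127 CPM of the 179 in P2, and 31.7 CPM of the 189 in O2. The erythroid sum was 35.7 to 51.2 CPM in Adult, 21.0 to 59.5 CPM in PDX and 16.7 to 52.9 CPM in Old mice other than O2. Within the erythroid list, Gata1, a defining factor, was at 5.00 CPM in O2, at 1.00 CPM in P2 and at 1.25 CPM in P4. In all other mice Gata1 was at or under 0.172 CPM. Car1, another gene of that list, was also highest in O2, at 8.51 CPM, as were all 12 genes of the list. It was lower in PDX than in Adult, at 0.276 to 1.93 CPM against 2.67 to 6.11 CPM. In the other Old mice it was at 0 to 2.45 CPM. By the TMM-scaled total O2 did not have the highest sum in the other lists. It was at 523 CPM for B and plasma cell markers (at most 832 in another mouse) and at 340 CPM for endothelial markers (388). It was at 541 CPM for stellate markers (580) and at 79.4 CPM for cholangiocyte markers (122). Of 10 tested B and plasma cell genes, 5 rose between Adult and Old, and 1 without O2, beside 4.71% and 3.38% of all genes. The part of all these cell types in the members' levels was not tested.

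**Figure D5:**
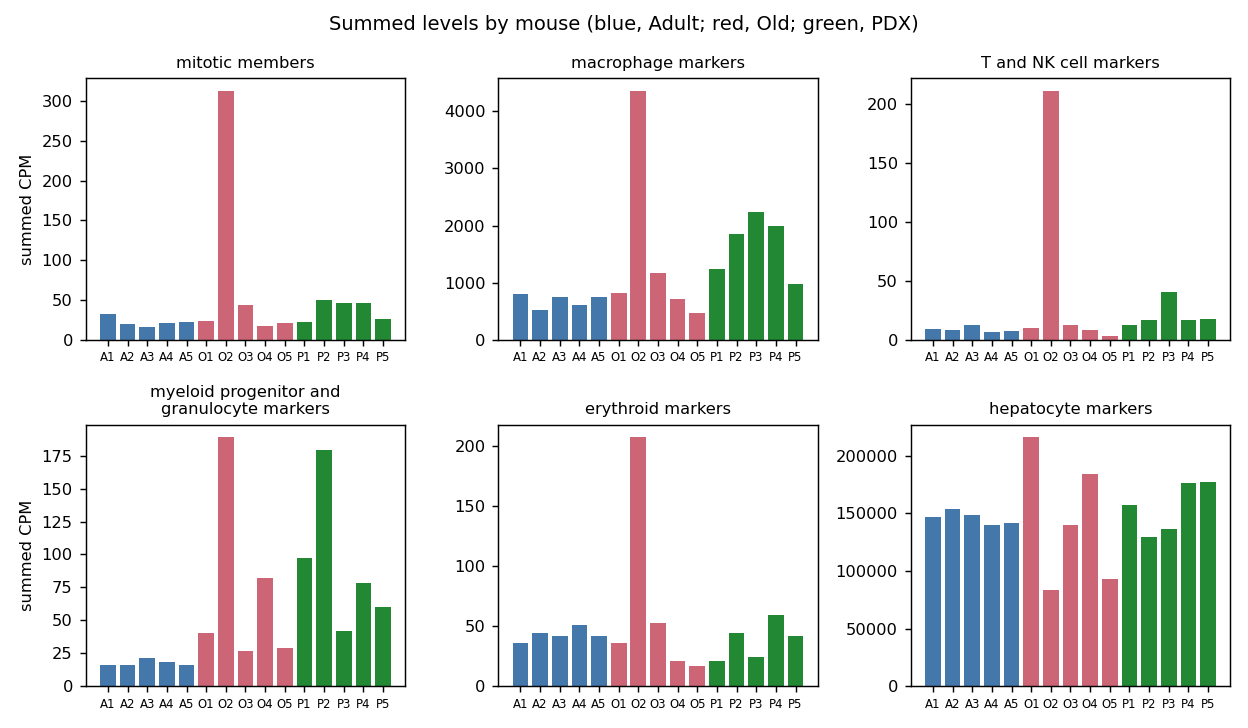
Bars give the summed CPM per mouse of the 25 mitotic members and of marker lists of 5 cell types, each on its own axis from 0. The B and plasma cell, endothelial, stellate and cholangiocyte lists are not drawn. O2 has the highest bar for the mitotic members (313) and for macrophage (4359), T and NK cell (211, with 116 from Cd4), myeloid (189) and erythroid (207) markers. It has the lowest bar for hepatocyte markers (83785), where O5 is the lowest by the raw library total.

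Other genes of the same pathways were taken from lists, which were also chosen with earlier results of these data known. Of 41 tested further S-phase genes, 2 rose between Adult and Old and 0 fell, beside 4.71% and 2.07% of all genes tested. The 2 were Fen1, the flap endonuclease (1.04 ± 0.28 on the log2 scale, edgeR adjusted p = 0.0386), and Ung, the uracil glycosylase (1.28 ± 0.32, edgeR adjusted p = 0.0319). Ung also rose between Adult and PDX (1.32 ± 0.32, edgeR adjusted p = 0.0409). Of 41 tested further mitotic genes, Kif22, a chromosome motor, rose between Adult and Old (2.15 ± 0.62, edgeR adjusted p = 0.0496) but not without O2 (0.82 ± 0.30, edgeR adjusted p = 0.125), and Pttg1, securin, fell by 0.56 ± 0.13 (edgeR adjusted p = 0.0249). The median log2 difference between Old and Adult was 0.56 over the further S-phase genes and 1.40 over the further mitotic genes, and 0.26 and 0.23 without O2.

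Of 34 tested regulators of the cycle, 2 rose between Adult and Old and 0 fell, beside 4.71% and 2.07% of all genes tested. The antiproliferative gene Btg2 was at 13.4 to 24.3 CPM in Adult, at 44.1, 85.9, 91.5, 51.5 and 276 CPM in O1 to O5 and at 40.7 to 117 CPM in PDX. All Old mice were above all Adult mice, as in 3.65% of all genes tested, and so were all PDX mice, as in 10.5%. The rise was 2.64 ± 0.48 on the log2 scale between Adult and Old (edgeR adjusted p = 0.0110) and 2.15 ± 0.47 between Adult and PDX (edgeR adjusted p = 0.0239). Cdkn2c, the CDK inhibitor p18, rose by 0.65 ± 0.19 between Adult and Old (edgeR adjusted p = 0.0476), and without O2 the difference of 0.48 ± 0.15 missed the threshold (edgeR adjusted p = 0.0885). Between Adult and PDX, Cdkn2a, the locus of the senescence marker p16, rose by 2.68 ± 0.49 (edgeR adjusted p = 0.00914), from 0.141 to 0.402 CPM in Adult to 0.71 to 2.75 CPM in PDX. Tob1, another antiproliferative gene, fell by 1.26 ± 0.25 (edgeR adjusted p = 0.0157). Of all genes, 1.76% rose and 0.898% fell in that comparison. Both genes differed in the same direction between Adult and Old but missed the threshold. Cdkn2a was at 0.297 to 1.2 CPM in Old (1.67 ± 0.48, edgeR adjusted p = 0.0512), and the Tob1 difference was -0.79 ± 0.25 (edgeR adjusted p = 0.0643). Between PDX and Old, 0 of these 34 changed by edgeR. Cdkn1a, the CDK inhibitor p21, was at 1.79 to 34.6 CPM in Adult, at 23.4, 47.4, 4.79, 28.6 and 138 CPM in O1 to O5 and at 22.9 to 61.5 CPM in PDX, and did not pass the test between Old and Adult (1.84 ± 0.79 on the log2 scale, edgeR adjusted p = 0.146).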

How the data were processed

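The authors aligned the reads of strand-specific poly(A) libraries with STAR (2.6.0c) to mm10 and used featureCounts (Subread 1.6.2) to make the deposited counts per gene from unique proper pairs, so pairs that also match a copy of a gene are not counted. Their transformed table was not used here. Symbols and exon lengths came from GENCODE M21 (55190 of 55450 IDs matched). Counts were tested with edgeR (4.0.16) in R (4.3.3): filterByExpr (minimum count 10, minimum total 15), TMM factors and a quasi-likelihood fit of 15 mice with 1 coefficient per group. The study used the Wald test of DESeq2, an alternative here (1.42.0). Other tests and sums used scipy (1.17.1). Values in text are CPM of the TMM-scaled library total, RPKM divides these by exon length in kb, and intervals are SE. Levels by the raw total were added after the data were seen. Steps were tested on simulated data. Depth was 22424383 to 36070835 counts per library, and 3 counts in the smallest library are 0.134 CPM of its raw total. Named members are those called, the 3 smallest p-values of each comparison and the highest mean RPKM of each role, and the rest are by ranges. Members and lists were chosen with earlier results of these data known. Foxm1, Aurkb, Tk1, Mcm2, Kif22 and the other further pathway genes called, Cdkn1a and single marker genes lie outside that rule and were named after their values were seen. Euthanasia batches were not analysed here.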

Additional observations from a re-analysis of the deposited data

Results flagged for a closer look

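In 42 groups of 5 mice (the 2 class sums and 12 named members), 12 had a highest or lowest mouse separated from the rest by more than Dixon's 95% critical value of 0.71 for the gap over the range on the CPM scale. Chance gives about 1 in 20 groups, or about 2.1 of 42, if groups are independent and values normally spread. Here the class sums include named members and the same mice enter every gene, so no conclusion is drawn from the 12 beside 2.1. The scale matters. The gap was first computed on log2 CPM, where 4 groups passed, and was then computed on CPM, the scale of the values printed here, so both are given.

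On the CPM scale O2 was far above the other Old mice in the S-phase sum (gap over range 0.897), the mitotic sum (0.914), Pcna (0.901), Ccnb2 (0.896), Cdc20 (0.857), Kif23 (0.867) and Mki67 (0.899). Of these, the S-phase sum (0.809) and Pcna (0.853) also passed on the log2 scale. A1 was far above the other Adult mice at Mcm7 (0.717, 15.8 CPM) and Cdc20 (0.743, 2.33 CPM), and neither passed on the log2 scale. A2 was far below them at Kif23 (0.766, 0.775 CPM), and on the log2 scale too (0.818). In PDX, P5 was far below at Cenpa (0.813, 3.23 CPM; 0.847 on the log2 scale), and P3 far above at Ccnd1 (0.759, 186 CPM), on the CPM scale only.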

How the results depend on the processing

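Over the alternatives run, values of the 12 named members kept their direction and side of the threshold 721 times, 22 lost the threshold, 15 passed it and 34 changed sign. The 3 members called between Old and Adult became 15 of 40 by DESeq2, where 10.1% of all genes rose. In the fit of the 2 groups they became 0, where only 83 of all 15040 genes rose and 22 fell. They were 0 to 10 when 1 mouse was left out. They were 0 or 1 without any 1 Adult mouse, when 108 to 182 of all genes rose, against 745 with all mice. They were 8 without O3 (8.55% of all genes rose), 9 without O5 (8.66%), 10 without O1 (7.64%) and 10 without O4 (7.44%). The 0 members called between PDX and Adult became 10 in the fit of the 2 groups (29.6% of all genes) and 8 without O2 and O5 (24.6%). When 1 mouse was left out, 0 to 4 were called. There were 4 without O2, where 7.76% of all genes rose, and 1 without O5, where 857 genes rose and 887 fell of 16027. With the replicate number as a block, 0 members were called between Old and Adult, where 169 of all 15808 genes rose and 68 fell. The same numbers belong to different animals and correlated at -0.215 to -0.11 between Old and Adult, -0.039 to 0.285 between PDX and Old and -0.047 to 0.146 between PDX and Adult. The block also turned the log2 difference of Ccnd1 between Old and Adult to -0.22, and those of E2f1 and Cenpa between PDX and Old to 0.03 and 0.01.

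Without O2 and O5, the median log2 difference between Old and Adult was 0.30 over S-phase and 0.13 over mitotic members, and that of mitotic members between PDX and Old was 0.52. Log2 differences that turned were -0.10 for Pcna, -0.46 for Ccnb2 and -0.05 for Cenpa between Old and Adult, and 0.16 for E2f1, 0.16 for Mcm7, 0.05 for Pcna, 0.61 for Ccnb2, 0.22 for Cenpa and 0.08 for Mki67 between PDX and Old. With counts thinned, Ccne2 between PDX and Adult was -0.01. The cause was not tested.

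When 1 mouse was left out, the medians between Old and Adult ranged from 0.16 to 1.15 for S-phase and 0.15 to 2.34 for mitotic members, with the lowest without O2, and that of mitotic members between PDX and Old from -1.52 to 0.50. Log2 differences between Old and Adult ranged from -0.12 to 0.27 for Pcna, -0.14 to 1.69 for Ccnb2, -0.25 to 0.54 for Cenpa and -0.23 to 0.39 for Ccnd1. Those between PDX and Old ranged from -0.44 to 0.45 for E2f1, -0.35 to 0.05 for Pcna, -1.56 to 0.27 for Ccnb2, -0.25 to 1.34 for Kif23, -0.39 to 0.41 for Cenpa and -1.84 to 0.32 for Mki67. Those between PDX and Adult ranged from -0.07 to 0.36 for Ccne2, -0.05 to 0.34 for Ccnb2 and -0.06 to 0.98 for Cdc20. Members near 3 counts, such as Ccnb1, are limited by depth, and intervals over mice cover only the spread between these mice.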
